A study of Mus musculus with 2 samples.

Results

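The 6 CC chemokine genes Ccl24, Ccl11, Ccl17, Ccl22, Ccl8 and Ccl1, which encode attractants of eosinophils and of T helper 2 (Th2) cells, were read in mouse bone marrow-derived macrophages (BMDMs) with and without interleukin-4 (IL-4). They were chosen by name, as every non-control probe whose RefSeq accession belongs to one of them, and this gave 6 probes, 1 for each gene, among 32448 genes and identifiers on the array. The BMDMs were grown from marrow for 7 days with M-CSF at 20 ng/ml. The marrow donors were male mice, 8 weeks of age, with the Crif1 f/f allele, which both conditions share. One culture was left untreated and the other received IL-4 for 18 h. The number of mice behind each RNA sample and the IL-4 dose of the array cultures are not given in the sources used here. Each condition was hybridised to 1 single-colour Cy3 array, so 2 arrays make up the series, no difference has a replicate check, no p-value is given, and precision is limited by how few arrays there are. Below, a probe is called detected where the scanner software marked it well above background.

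CC chemokines are small secreted proteins that bind G protein-coupled receptors on leukocytes and direct their migration. Ccl24 (eotaxin-2) and Ccl11 (eotaxin-1) are ligands of CCR3, the main chemokine receptor of eosinophils. Ccl17 (TARC) and Ccl22 (MDC) are ligands of CCR4, which Th2 and regulatory T cells carry. Ccl1 (TCA-3) and, in mice, Ccl8 are ligands of CCR8, a receptor of Th2 cells. IL-4 is itself made by Th2 cells and eosinophils, and it signals in macrophages through the IL-4 receptor and the transcription factor STAT6 toward the M2-like state.

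After IL-4, Ccl24 and Ccl17 were higher by 2-fold or more. Ccl8 was measured on both arrays and stayed under 2-fold. Ccl11 came into view at the detection limit of the IL-4 array, and Ccl22 and Ccl1 were detected on neither array. So 2 of the 6 genes were at least 2-fold higher and 0 were at least 2-fold lower. Of the 19743 genes detected on 1 array or both, 2.86% passed the limit upward and 4.47% downward. This base leaves out undetected genes, while the 6 genes include 2 of them, Ccl22 and Ccl1. Of all 32448 genes and identifiers, 564 passed upward and 883 downward. Over all genes, the share of higher among changed genes was 39.0%, and it was 34.0% to 65.8% under 6 other scalings of the arrays. The same 2 chemokine genes, Ccl24 and Ccl17, passed the 2-fold limit under each of these scalings. Most of these scalings shift all genes by 1 constant, which was small beside the differences of these 2 genes.

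The DNA before the start site is shown for the CCR4 ligands, because they lie near each other on chromosome 8 and only 1 of them was detected, and for Ccl8, which was measured on both arrays. RefSeq promoters were found for 4 of the 6 genes, and the entries for Ccl24 and Ccl11 were missing. The sequences are the 250 bases before the start site in GRCm38.p6, 5′ to 3′ on the strand of the gene, from chr8:94810203-94810452 (+) for Ccl17, chr8:94745434-94745683 (+) for Ccl22 and chr11:82114935-82115184 (+) for Ccl8. Capitals mark matches to TTC and GAA with 4 bases between them, the spacing that STAT6 prefers, to TTC and GAA with 3 bases between them, the spacing of other STAT factors, and to the TATA box TATAAA, searched on both strands.
Ccl17: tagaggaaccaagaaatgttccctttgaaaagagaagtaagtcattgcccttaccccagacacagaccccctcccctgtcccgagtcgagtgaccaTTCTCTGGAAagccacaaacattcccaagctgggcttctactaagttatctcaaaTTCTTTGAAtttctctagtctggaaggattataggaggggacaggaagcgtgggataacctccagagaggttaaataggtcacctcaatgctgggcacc
Ccl22: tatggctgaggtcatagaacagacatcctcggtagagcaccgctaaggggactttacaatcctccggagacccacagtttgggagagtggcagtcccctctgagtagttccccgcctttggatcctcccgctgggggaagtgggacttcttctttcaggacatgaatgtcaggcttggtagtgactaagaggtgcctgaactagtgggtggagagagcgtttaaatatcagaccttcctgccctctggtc
Ccl8: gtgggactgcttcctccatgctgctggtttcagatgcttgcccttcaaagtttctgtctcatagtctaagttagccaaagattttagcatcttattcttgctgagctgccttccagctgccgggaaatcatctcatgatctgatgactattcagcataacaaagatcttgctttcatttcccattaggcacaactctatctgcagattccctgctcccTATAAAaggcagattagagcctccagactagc
Ccl17 held TTCTCTGGAA at 154 to 145 bases before the start site and TTCTTTGAA at 99 to 91 bases before it. Of 32851 mouse promoter windows of this length, 5.85% held the 4-base spacing and 7.02% held the 3-base spacing. The windows of Ccl22, Ccl8 and Ccl1 held neither, and of 13 windows of other CC chemokine genes 0 held either. The list behind these 13 windows includes Ccl2, Ccl4, Ccl7 and Ccl12, which were also at least 2-fold higher. At the shares over all windows few matches would fall in 13, so this count does not set Ccl17 apart. Ccl8 held TATAAA at 32 to 27 bases before the start site, a match present in 12.4% of all windows and in 3 of the 13. The windows of Ccl17, Ccl22 and Ccl1 did not hold these letters. A match in this window is a description of the sequence and does not show that a factor binds there.

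Ccl24, an eosinophil attractant, showed the largest difference of the 3 genes measured on both arrays. Untreated BMDMs gave a background-subtracted intensity of 34.2 ± 6.79, and BMDMs with IL-4 gave 1094 ± 109.6, where ± is the error that the scanner software gives for 1 spot. The untreated spot lay just above the lowest intensity well above background on that array, 29.2, and the IL-4 spot lay far above it. The median pixel brightness of the untreated spot, before any subtraction, was 110, and that of 153 negative control spots on the same array was at most 82. After each array was scaled to its 75th percentile, the log2 difference of Ccl24 was 4.90, a 29.9-fold higher signal, at rank 6 of 19743 genes. Ranks place measured differences together with lower bounds, so genes with a bound may in truth stand higher. Genes with no fold have no rank. Probes printed in 10 spots at these signals gave an SD between spots of 0.22 for such a difference, an error of printing and scanning that leaves out how cultures vary. Under 6 other scalings the log2 difference lay between 4.85 and 5.19. The untreated signal was near the floor, and with normexp correction of the pixel intensity the difference was 9.57-fold. Normexp here adds an offset of 50 to every spot, which shrinks the differences of dim spots by construction.

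Ccl11, the other CCR3 ligand, was seen only at the edge of detection. Its intensity was 6.50 ± 5.87 in untreated BMDMs, not well above background, and 29.7 ± 6.35 after IL-4, well above background by the software's flag. The median pixel brightness was 75 on the untreated array, where 4 of 153 negative controls were as bright or brighter, and 104.5 on the IL-4 array, where 0 of 153 were. The IL-4 signal did not exceed the floor of the untreated array after scaling, so no fold is given. The software also called both spots positive and significant over their local background, a weaker criterion, and by that criterion, chosen after its values were seen, the log2 difference of Ccl11 as measured was 2.09, against 3.56% of 22109 genes that met it and were at least 2-fold higher. The untreated signal behind that difference was little larger than its software error, so the size of the difference is poorly known. Under 5 of 6 other scalings the IL-4 signal of Ccl11 just exceeded the floor, with lower bounds of 0.02 to 0.44 on the log2 scale. With normexp the bound was 0.15.

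**Figure D1:**
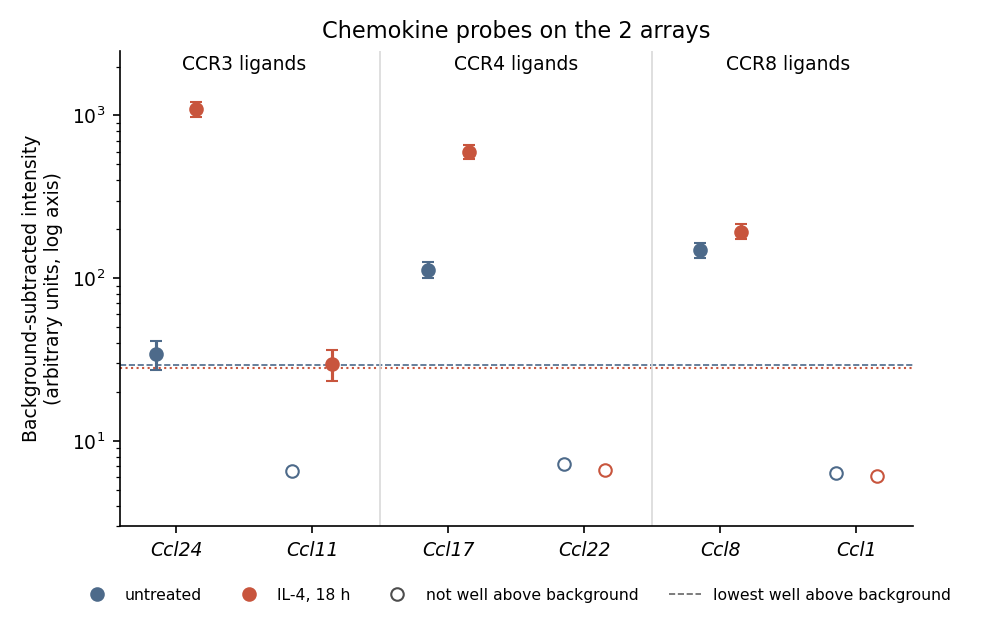
Background-subtracted intensity (log axis) of the 1 probe for each chemokine gene on the untreated array and the IL-4 array, ordered by receptor. Bars are the error of the scanner software for spots well above background, open points are spots that were not, and the horizontal lines are the lowest intensities well above background, 29.2 (untreated, dashed) and 27.9 (IL-4, dotted). Ccl24 and Ccl17 rise between the arrays, Ccl11 reaches the line after IL-4, and Ccl22 and Ccl1 stay below it. Probes differ in brightness, so heights are compared within a gene only.

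Ccl17, an attractant of CCR4-bearing T cells, was already measured without IL-4. Its intensity was 112 ± 12.7 in untreated BMDMs and 600 ± 60.2 after IL-4. The 2 values lie far apart against their errors, and both are well above the floor. The scaled log2 difference was 2.32, a 4.98-fold higher signal, with an SD between spots of 0.12, and it stood at rank 82 among the same genes. Under 6 other scalings it lay between 2.26 and 2.60, and with normexp it was 1.71, or 3.27-fold. Ccl22, which binds the same receptor, had an intensity of 7.18 in untreated BMDMs and 6.64 after IL-4. The median pixel brightness of its spots was 61 and 54, and 33 and 124 of 153 negative controls on the same arrays were as bright or brighter. Ccl22 was therefore within the range of spots without a target on both arrays, and the 1 probe gives no fold.

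The CCR8 ligands did not pass the 2-fold limit. Ccl8 had an intensity of 149 ± 16.4 in untreated BMDMs and 193 ± 20.5 after IL-4. Its scaled log2 difference was 0.28, a 1.21-fold higher signal, with an SD between spots of 0.11. The difference thus exceeded the spot error, but the software's own error for it was 0.22 on the log2 scale. Under 6 other scalings it lay between 0.23 and 0.57 and with normexp it was 0.07, so its size varied with the processing. Ccl1 had an intensity of 6.38 without and 6.07 with IL-4. Its median pixel brightness was 50 and 65, below 145 and 30 of the negative controls or equal to them, and it too has no fold.

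**Figure D2:**
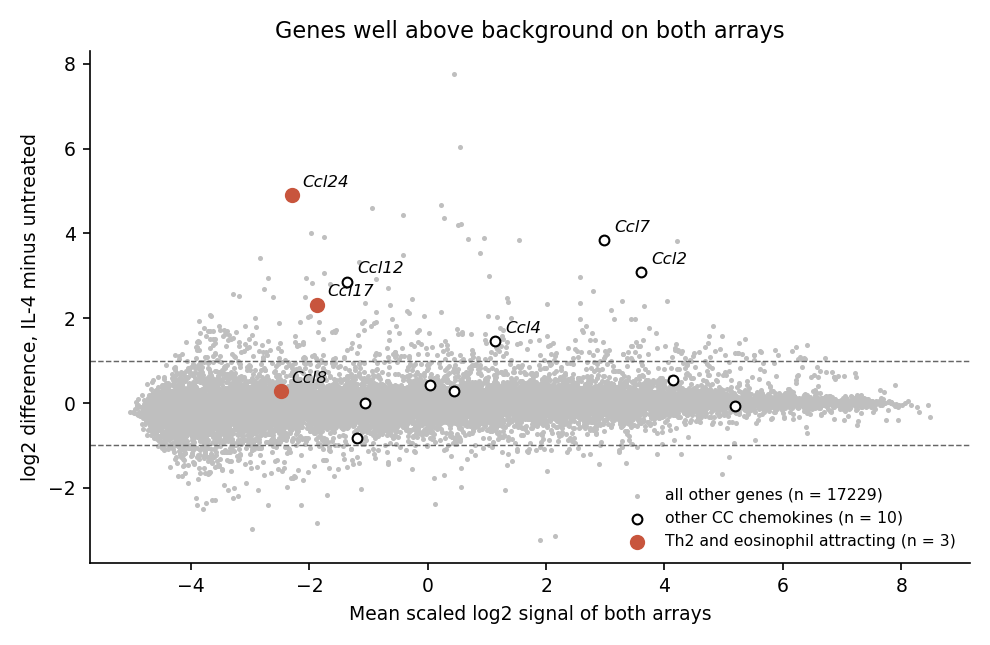
Log2 difference, IL-4 minus untreated, against the mean scaled log2 signal of both arrays, for genes well above background on both arrays. Filled points are the 3 chemokine genes measured on both arrays, open points are 10 other CC chemokine genes, and dashed lines mark 2-fold. Ccl24 and Ccl17 lie above the 2-fold line and Ccl8 lies within the cloud of all genes.

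**Figure D3:**
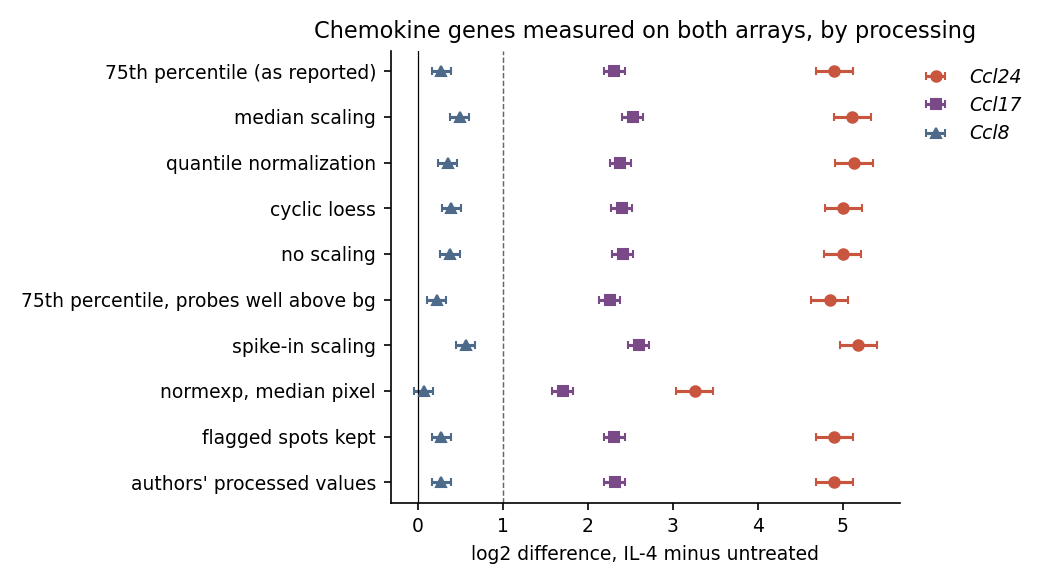
Log2 difference of Ccl24, Ccl17 and Ccl8 under the reported 75th percentile scaling and 9 alternatives, with bars for the SD between spots. Scalings shift Ccl24 and Ccl17 by amounts small beside their differences, while Ccl8 lies between 0.23 and 0.57 under 6 other scalings. Normexp correction brings each of the 3 genes down, Ccl24 the most, to 3.26, with Ccl24 and Ccl17 still above the dashed 2-fold line.

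Most of these genes lie in clusters of chemokine genes, and neighbours in a cluster did not share a single difference. Ccl11, Ccl8 and Ccl1 lie on chromosome 11 in the order Ccl2, Ccl7, Ccl11, Ccl12, Ccl8, Ccl1. In this row the monocyte attractants Ccl2, Ccl7 and Ccl12 had log2 differences of 3.09, 3.84 and 2.86, so Ccl11, read near the floor, stands between the 14.3-fold higher Ccl7 and the 7.26-fold higher Ccl12. Ccl8, next to Ccl12, was at 0.28, and Ccl1 at the end of the row was not detected. On chromosome 8 the order is Ccl22, Cx3cl1, Ccl17. Cx3cl1, which encodes fractalkine, had a log2 difference of 0.26, and Ciapin1, on the other side of Ccl17, also had 0.26. On chromosome 5 Ccl24 lies between Ccl26, another eotaxin gene, and Rhbdd2. Ccl26 was not detected, at intensities of 12.3 and 5.95, and Rhbdd2 had a log2 difference of -0.01. These neighbours were picked by position, after the values of the chemokine genes were known.

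**Figure D4:**
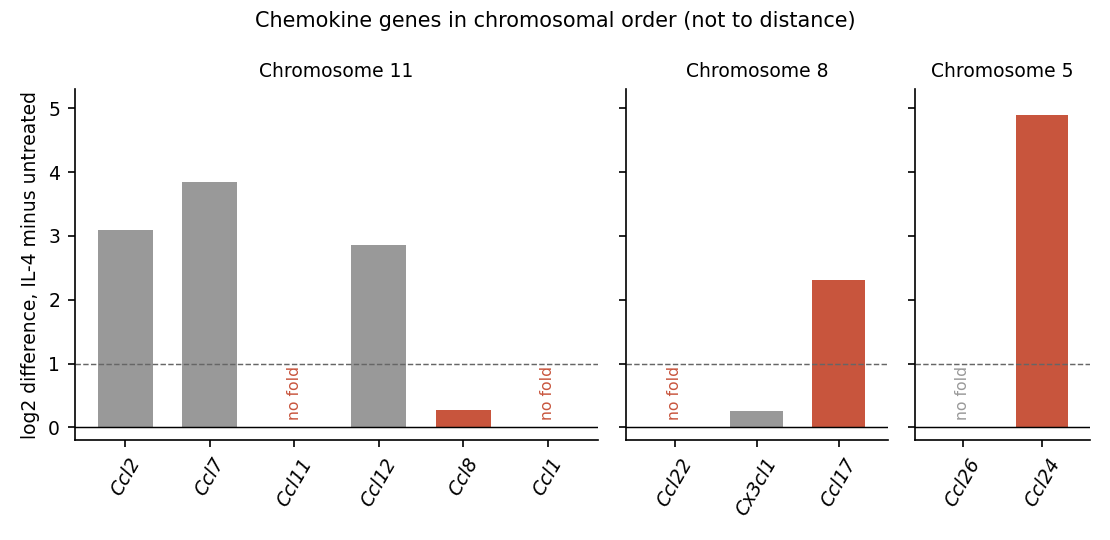
Log2 difference, IL-4 minus untreated, of chemokine genes in their order along 3 mouse chromosomes, with the 6 Th2 and eosinophil attracting genes in red and other genes in grey. The dashed line marks 2-fold, and "no fold" marks genes not well above background on 1 or both arrays. Each cluster holds at least 1 gene above the 2-fold line and at least 1 gene with no fold.

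Among the other CC chemokines, 14 of 15 genes had a matched probe, 10 were well above background on both arrays, and 4 were at least 2-fold higher, namely Ccl2, Ccl4, Ccl7 and Ccl12, with 0 lower. Their median log2 difference over those 10 genes was 0.48, and over all genes well above background on both arrays it was -0.01. Ccl2, Ccl4, Ccl7 and Ccl12 stayed at least 2-fold higher under all 9 alternatives that give a difference, and Ccl12 was 4.74-fold higher with normexp. Of the other 6 detected genes, Ccl3, Ccl5 and Ccl9 had log2 differences of 0.28, 0.42 and 0.54, and Ccl6 had -0.08. Ccl25 had -0.0029 at its brighter probe and -0.88 at the dimmer one. Ccl27a had -0.83 at its brightest probe and -0.37 and -0.49 at dimmer ones. Ccl19, Ccl20, Ccl26 and Ccl28 were detected on neither array.

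The receptors of the 6 chemokines were read from their own probes. Ccr3, the receptor of Ccl11 and Ccl24, had an intensity of 70.4 ± 10.5 in untreated BMDMs and 91.4 after IL-4. Its log2 difference was 0.28, with an SD between spots of 0.19 and a range of -0.15 to 0.56 over the alternatives, so its sign depended on the processing. Ccr4, the receptor of Ccl17 and Ccl22, was detected on neither array. Ccr8, the receptor of Ccl1 and Ccl8, was not well above background without IL-4, at 6.36, and was well above it after IL-4, at 59.5 ± 8.41. Its lower bound was 1.90-fold higher, and the bound passed 2-fold under median, quantile, cyclic loess, spike-in and no scaling. The processed table has no rule for dim probes, and there the log2 difference against the undetected spot was 3.13, which is no bound. The second, dimmer probe for Ccr8 was not detected, with 7.99 and 20.8. The scavenging receptor Ackr2, which removes CC chemokines by uptake, had a log2 difference of -0.30 at its brighter probe, and Ackr1 and the protease Dpp4, which cleaves Ccl11 and Ccl22, were detected on neither array.

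In the IL-4 receptor and STAT6 route, 4 of 11 genes were at least 2-fold higher and 0 lower. The feedback inhibitors Cish and Socs1 were 25.4-fold and 20.7-fold higher, the kinase Jak2 was 2.27-fold higher and the transcription factor Irf4, not well above background without IL-4, was at least 25.6-fold higher, a bound that was 7.93-fold with normexp. The median of the 10 genes of this route well above background on both arrays was 0.09. None of the 9 type 2 cytokine genes, Il4, Il5, Il9, Il10, Il13, Il25, Il33, Tslp and Csf2, was detected on an array, with intensities of at most 19.95 in untreated BMDMs and 39.5 after IL-4.

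The labelled cell type was checked against marker genes, because fibroblasts, dendritic cells and eosinophils can also make these chemokines. All 7 macrophage markers with a probe were well above background on both arrays, with summed intensities of 296935 and 273913. Probes differ in brightness, so sums here and below are read between the 2 arrays and not between cell types. Their median log2 difference was -0.71. Cd14, Fcgr1 and Mertk were more than 2-fold lower after IL-4, at -1.42, -1.23 and -1.14, Itgam and Lyz2 were at -0.71 and -0.70, and Csf1r and Adgre1 were at 0.09 and 0.17, though Mertk and Fcgr1 did not reach 2-fold under every scaling. All 5 fibroblast markers were well above background on both arrays too. Col1a2 had intensities of 233342 and 234332, Col1a1 58153 and 49150, Col3a1 20818 and 21789, Dcn 10912 and 10595, and Pdgfra 785 and 1195. Their summed intensity was 324010 in untreated BMDMs and 317061 after IL-4, and their log2 differences lay between -0.34 and 0.51, so transcripts of fibroblast marker genes were bright on both arrays and 0 of 5 were at least 2-fold changed. By the study's methods, culture purity was checked by flow cytometry for CD11b and F4/80, which are macrophage surface proteins. Nearly all cells of the study's BMDM cultures were reported as pure by these proteins. The part of fibroblast transcripts in the chemokine signals was not tested. In RNA of a whole culture, more cells of a type and more RNA per cell cannot be told apart.

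**Figure D5:**
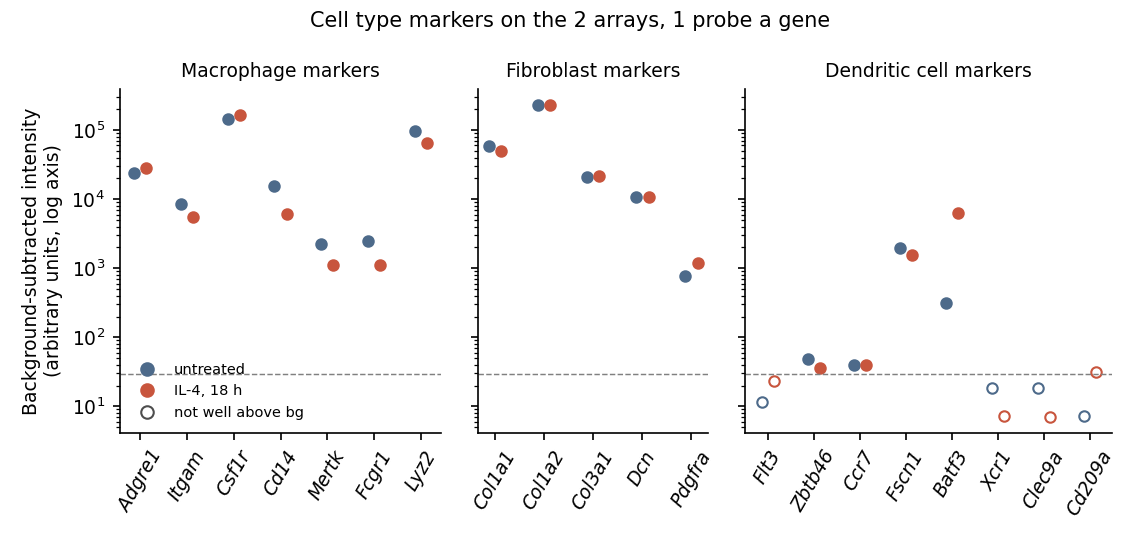
Background-subtracted intensity (log axis) of macrophage, fibroblast and dendritic cell marker genes, 1 probe a gene, on the untreated and the IL-4 array. Open points are spots not well above background and the dashed line is the lowest intensity well above background on the untreated array, 29.2. All macrophage and fibroblast markers lie above the line on both arrays, as do the dendritic cell markers Zbtb46, Ccr7, Fscn1 and Batf3, while Flt3, Xcr1, Clec9a and Cd209a are open points on both. Batf3 is higher after IL-4.

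Of 8 dendritic cell markers, 4 were detected on both arrays and 4 on neither. Flt3, Xcr1, Clec9a and Cd209a were not detected, while Zbtb46 had intensities of 48.2 and 36.1, Ccr7 39.7 and 39.9, and Fscn1 1993 and 1534. Batf3, a transcription factor of dendritic cells that other leukocytes express as well, had a log2 difference of 4.23, and Zbtb46, Ccr7 and Fscn1 had -0.52, -0.09 and -0.48. The summed intensity of this list was 2449 in untreated BMDMs and 7950 after IL-4, and Batf3 alone held 312 and 6271 of it. Of 6 eosinophil markers, the granule gene Epx and Il5ra were not detected, Prg2 had 79.6 and 110.2, Siglecf had 772 and 817, and Cebpe had a log2 difference of -1.57. The summed intensity of the eosinophil list was 1502 and 1239. Of 6 T cell markers with a probe, 0 were at least 2-fold changed, with sums of 1023 and 959. By the brightest probe, Cd3e, at 343 and 296, Cd4, at 511 and 547, and Lck, at 119.7 and 90.05, were detected on both arrays, Cd2 on the untreated array, and Cd3g and Cd8a on neither. A dimmer Cd4 probe, printed in 10 spots, had 39.3 and 6.53 and was detected on the untreated array only. A dimmer Cd2 probe, also in 10 spots, was detected on neither array. Of 5 mast cell markers, Cpa3 was detected without IL-4 only, with 91.2 and 6.37. Tpsb2, at 233.7 and 212.5 at its brighter probe, and Kit, at 75.1 and 69.8, were detected on both arrays. Mcpt4 and Ms4a2 were detected on neither, and the sums of the mast cell list were 419 and 301. The part of these cells in the chemokine differences was not tested.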

How the data were processed

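Untreated and IL-4 treated BMDMs were each measured on 1 single-colour Agilent mouse array. The intensity values that the authors deposited come from Feature Extraction 10.10.1.1, which subtracts background and detrends within an array and does no scaling between arrays. The flags, coded 0 or 1 as other values, were used as the authors deposited them. Processed log2 values were deposited too, as a table whose tool, scale and centring are not given in the sources used here. Its column medians were 0.16 and 0.016, and for the 6 chemokine probes its differences equalled the scaled scanner differences to within 0.001.

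Control spots and outlier spots were left out, log2 intensities were averaged over spots of 1 probe, and each array's own 75th percentile over 39424 probes, 9.84 and 9.94, was subtracted. For genes with several probes the brightest was used. Of these probes, 27229 matched 20656 symbols through RefSeq accessions of GRCm38.p6, used for names and gene order. The array design is annotated on mm9. Of 43020 gene spots, 59.8% and 57.4% were well above background and 0 were saturated. No chemokine spot carried an outlier flag. A probe detected on 1 array has a lower bound in place of a difference, set against whichever is higher on the other array, its own signal there or the dimmest detected signal. Where it was on neither, or the bound was not past 0, no fold is given. The spot error combines the median SD between spots of probes printed in 10 spots within 1 log2 unit on each array. Genes past 2-fold were counted with no test. The chemokine genes, gene lists and alternatives were chosen with earlier results of these data known. By the rule for naming, the 6 chemokines, the receptors and list genes past 2-fold are named. Cell markers, undetected or unchanged list genes and chromosomal neighbours up to 3 genes away are named outside that rule, after their values were seen. Alternatives used limma 3.58.1 in R 4.3.3, and the rest used pandas 2.3.3 and numpy 2.4.6 in Python 3.11.15.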

Additional observations from a re-analysis of the deposited data

How the results depend on the processing

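The count of chemokine genes at least 2-fold higher was 2 in 12 of 15 alternatives and 3, with Ccl11 added, in the authors' processed values, without a rule for dim probes, and by the criterion of a positive and significant signal on both. The last of these was chosen after seeing the data. All 3 rest on nearly the same difference of Ccl11, 2.09, so they are not separate checks. The count of lower genes was 0 in all 15. Combining the probes of a gene, keeping flagged spots and requiring detection on both arrays had little or no room to change these counts. Each chemokine has 1 probe, no chemokine spot was flagged, and Ccl24 and Ccl17 were detected on both arrays. Normexp used median pixel brightness in place of a mean. Median scaling and spike-in scaling, on 7 control probes, raised the median log2 difference over detected genes from -0.01 to 0.20 and 0.27. No paired analysis was possible because untreated and IL-4 treated BMDMs have 1 array each.

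Over all genes, the 564 higher genes became 954 with spike-in scaling, 297 with normexp, 1392 in the authors' processed values, 1389 with no rule for dim probes, 363 when detection on both arrays was required, and 228 and 116 at log2 cutoffs of 1.5 and 2. The 883 lower genes became 564 with median scaling, 532 with quantile normalization, 495 with spike-in scaling, 268 with normexp, 4074 in the processed values, 4075 with no rule, 270 when both arrays had to detect a gene, 302 and 89 at cutoffs of 1.5 and 2, and 1585 by the positive and significant criterion. Filters and cutoffs change these counts by construction, the normexp offset of 50 shrinks the differences of dim spots by construction, while the cause of the shifts with scaling was not tested.

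Signal over background limits Ccl11, Ccl22 and Ccl1, and the untreated value of Ccl24. With 1 probe per gene, no second probe checks a chemokine that was not detected.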
